A study of Mus musculus with 9 samples.

Results

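The genes described here are 33 mouse genes of amino acid supply and of the stress response run by the transcription factor ATF4. They were chosen by name from a total of 27179 Entrez genes in the count tables, and every one of the 33 had a row. They fall into 4 roles. ATF4 itself and its signalling branch hold 5 genes. Synthesis of serine, glycine, one-carbon units and asparagine holds 6. Amino acid transporters together with the transferrin receptor hold 10, and cytoplasmic tRNA synthetases hold 12. Together the 33 genes took 0.405 to 0.588% of the counts of a library of cultured wild-type natural killer (NK) cells, 0.482 to 0.566% in cultured Id2-null cells, and 0.273, 0.240 and 0.215% in the Immature, M1 and M2 cells sorted from spleen.

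The study profiled NK cells, innate lymphocytes that kill infected and tumour cells, from spleens of C57BL/6 mice by RNA sequencing. It compared 3 Id2-null with 3 wild-type (WT) libraries, and the series title names sensitivity to interleukin-15 (IL-15), the cytokine on which NK cells depend. The labels give samples 1 to 6 a culture of 7 days with IL-15, whereas RNA of samples 7 to 9 was taken straight after sorting. Samples carry no numbers elsewhere, so the listed order was used, which makes the 6 genotype libraries the cultured ones and leaves 1 wild-type library each of Immature, M1 and M2 cells. How Id2 was deleted, the sort markers of Immature, M1 and M2, and the age, sex and number of mice are not given in the labels. Nor do the labels tie replicates to separate animals or cultures. The p-values therefore reflect library-to-library variation alone, possibly of technical origin. Where cultured cells are compared with sorted cells, that variation includes the differences among Immature, M1 and M2.

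Libraries held 4128414 to 4831831 counts, with 13888 to 14432 genes above 0, so that a count of 0 allows up to 0.621 to 0.727 CPM, the counts of a gene scaled to a common library size. Id2 stood at 375 to 408 CPM in WT cultures and 8.98 to 23.9 CPM in Id2-null cultures, which fits the labels. All 12 NK cell markers were detected in every library, with summed levels of 18760 to 22581 CPM in WT cultures, 10425 to 10854 in Id2-null cultures, and 17407, 27771 and 41047 in Immature, M1 and M2. Cytotoxic effectors carry the lower Id2-null sum. Gzmb, the only marker of the 12 called without a block, stood at 2117 to 2468 CPM against 8378 to 9300 CPM (adjusted p = 0.000197, edgeR). In contrast, 7 of the 12 had a log2 difference above 0 and the median was 0.04. A fit blocked on replicate number also called Prf1 and Tbx21 lower (adjusted p = 0.00563 and 0.0071, edgeR). The 2 genotypes also differed in sex-linked transcripts: Xist stood at 657 to 874 CPM in Id2-null and 0.208 to 1.16 CPM in WT cultures, and the Y-linked Ddx3y at 0.220 to 0.634 and 71.8 to 78.5 CPM. Genotype and sex therefore cannot be told apart. Each sorted library held both transcripts, Xist at 90.4 to 127 CPM and Ddx3y at 37.1 to 46.3 CPM. These are bulk samples, in which fewer cells of a type and less RNA per cell cannot be told apart.

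As background, cells short of amino acids load fewer tRNAs, which activates the kinase GCN2 (Eif2ak4). GCN2 and its sister kinases phosphorylate eIF2, which slows translation in general while the Atf4 messenger RNA is translated more. ATF4 then binds composite C/EBP-ATF sites, often with a C/EBP partner, and raises genes that import amino acids, make serine, glycine and asparagine, and charge tRNAs. In lymphocytes the same genes also follow activation and growth through mTORC1 and MYC, and amino acid uptake through the SLC7A5 and SLC3A2 heterodimer is a known requirement of NK cells stimulated by cytokines. ATF4 acts through its protein, which RNA counts do not measure.

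The C/EBP-ATF response element was searched in promoters because it is a site that ATF4 binds. RefSeq promoter sequences (GRCm38.p6, 250 bases before to 50 bases after the annotated start) were found for 26 of the 33 genes. Cars, Lars, Nars, Slc1a5, Slc38a1, Slc7a5 and Wars had none in the table used. The motif TGATGNAA, with N any base, lay on either strand in 10 of the 26, namely Aars, Asns, Chac1, Gars, Iars, Slc1a4, Slc7a11, Tars, Trib3 and Yars. It was present in 4.51% of all 27025 promoters of that table. The E-box CACGTG, a site of the MYC family, lay in 3 of the 26 (Aars, Iars and Tars) against 8.09% of all promoters. The E-box CAGCTG, a site of the E proteins that ID2 binds, lay in 4 (Chac1, Slc7a1, Tars and Yars) against 18.3%, and in Tars and Yars it overlapped the C/EBP-ATF match by 2 bases. A match is a description of the letters and not a measured binding site. The lack of a match covers this window alone, so the search does not sort direct ATF4 targets from other genes.

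The windows below show the matches in the 6 holders with the greatest fold difference between cultured WT and sorted cells among the 7 that passed the expression filter in that comparison, which leaves out Tars. Chac1, Slc7a11 and Trib3 also hold the motif but did not pass. Capitals mark the match, which reads as the reverse complement of the motif where it lies on the opposite strand. All are printed in the direction of transcription.
Asns, chr6:7693200-7693257, minus strand: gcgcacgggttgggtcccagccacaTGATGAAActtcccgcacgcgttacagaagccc
Slc1a4, chr11:20332685-20332742, minus strand: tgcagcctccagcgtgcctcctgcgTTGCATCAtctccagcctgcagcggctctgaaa
Iars, chr13:49682112-49682159, plus strand: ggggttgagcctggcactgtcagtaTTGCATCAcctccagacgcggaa
Aars, upstream match, chr8:111033705-111033762, plus strand: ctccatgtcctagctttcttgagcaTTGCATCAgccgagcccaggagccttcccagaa
Aars, second match, chr8:111033826-111033871, plus strand: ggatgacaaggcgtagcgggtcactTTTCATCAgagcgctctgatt
Gars, chr6:55037946-55038003, plus strand: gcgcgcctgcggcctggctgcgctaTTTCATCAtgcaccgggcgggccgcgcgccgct
Yars, chr4:129189881-129189932, plus strand: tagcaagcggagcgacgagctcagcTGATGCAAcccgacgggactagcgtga
Counting the start used for the promoter sequence as base 1, the matches begin at -23 in Asns, -4 in Slc1a4, 8 in Iars, -112 and 10 in Aars, -30 in Gars and 4 in Yars. In Aars and Yars that start lies inside the annotated gene, which begins at chr8:111027778 and chr4:129189734. TTGCATCA is spelled out in Slc1a4, Iars and the upstream match of Aars, and its reverse complement stands in Yars.

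Cultured WT cells held more of most of these transcripts than sorted cells. Of the 30 genes that passed the expression filter in this comparison, 19 were higher and 1 lower in culture by edgeR's quasi-likelihood test with a Benjamini-Hochberg adjusted p under 0.05 over all 11117 genes tested. Much of the transcriptome differed, since 56.8% of all genes were called, 27.4% higher and 29.4% lower in culture. Culture cannot be told apart from anything else that separates these libraries. That includes the sex-linked transcripts given above, both of which the sorted libraries held, and the cell type markers given below. Words such as rose and fell name the direction of a difference only. The 19 higher genes are 63.3% of the 30. The median log2 difference was 1.04 over the 30 genes, 26 of them above 0, and -0.02 over all genes tested. In 18 of the 30 every WT culture lay above every sorted library, as in 31.6% of all genes, and in 2 every culture lay below, as in 34.1%. Trib3, Chac1 and Slc7a11 did not pass the filter.

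**Figure D1:**
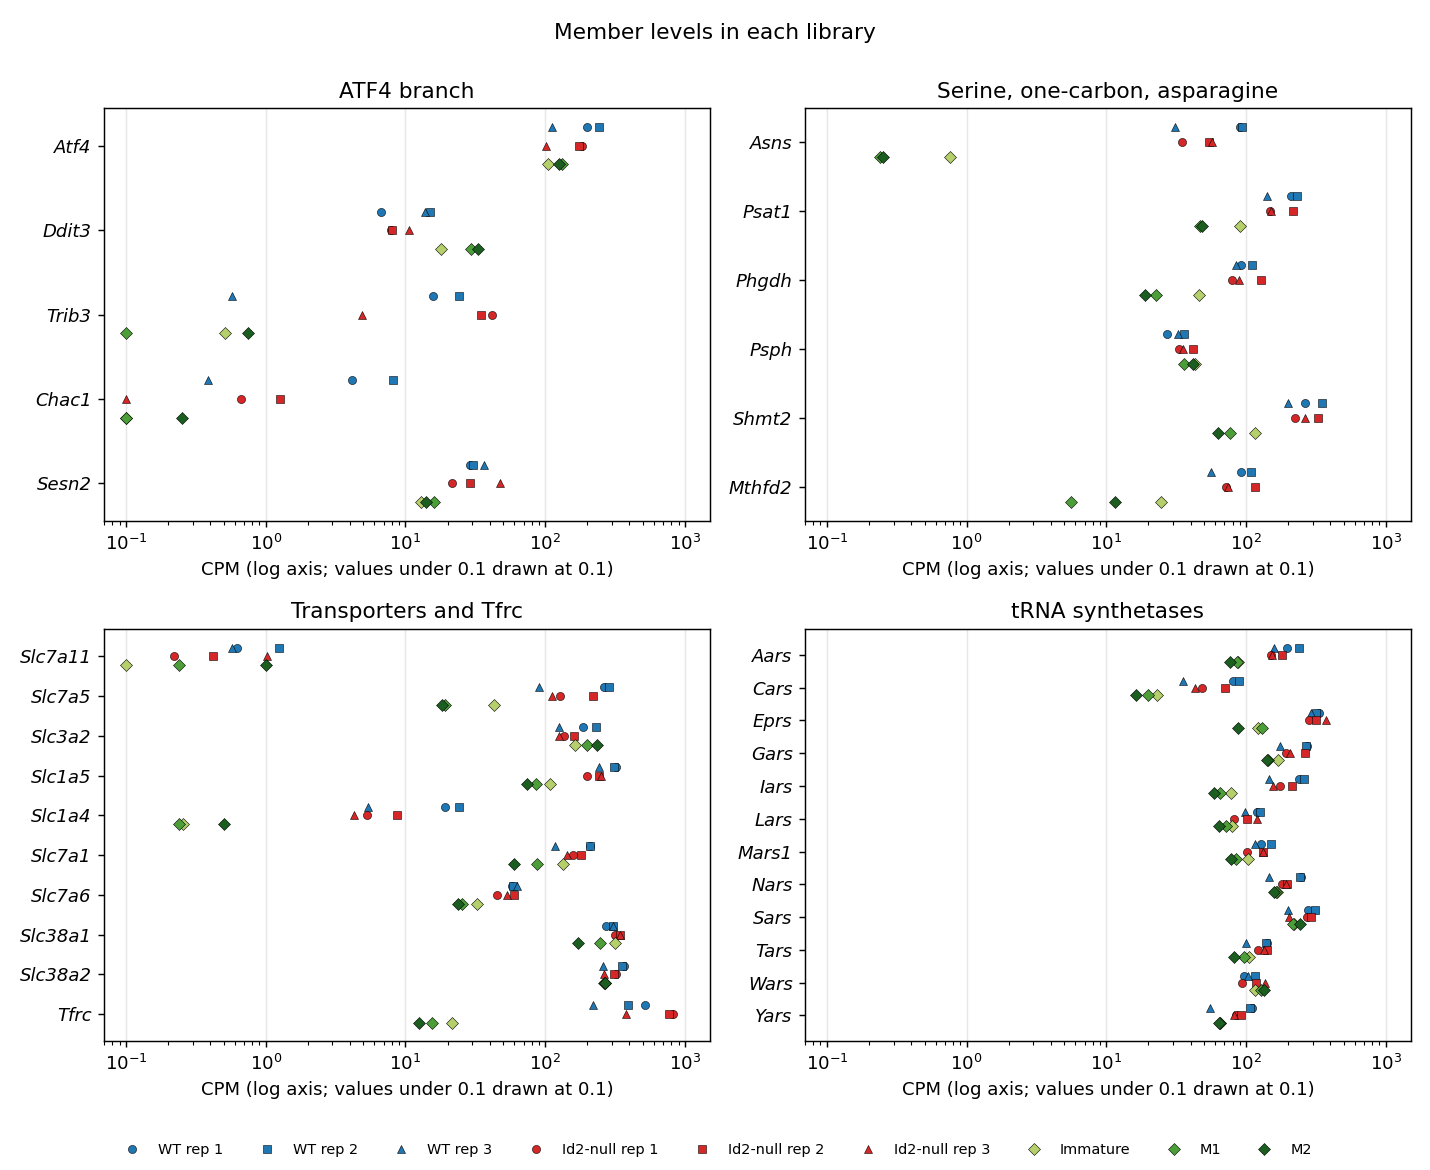
Level of each of the 33 genes in each of the 9 libraries, as CPM on a log axis, in 4 panels by role; each point is 1 library, coloured by group. Asns, Slc1a4 and Tfrc show the widest separation of cultured from sorted libraries, while Psph, Slc3a2, Sars and Wars lie close together in all groups.

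Among the enzymes, Asns, which makes asparagine from aspartate and glutamine, differed most. Its counts were 437, 449 and 160 in the 3 WT cultures and 3, 1 and 1 in Immature, M1 and M2, or 91.0, 93.4 and 30.8 CPM against 0.764, 0.241 and 0.251 CPM. Sorted cells were thus close to 0 and the third WT culture was well below the other two, yet still far above every sorted library. Pooled over libraries the ratio was 170.5 (95% counting interval 72.8 to 526), and Asns rose in culture with an adjusted p of 0.000226 (edgeR). Asns lies at chr6:7675165-7693209 in GRCm38.p6.

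The serine pathway rose with it, apart from its last step. Phgdh, which takes 3-phosphoglycerate into serine synthesis, stood at 91.7, 110 and 84.5 CPM in WT cultures and 45.8, 22.7 and 19.0 CPM in Immature, M1 and M2 (log2 difference 1.71 ± 0.32 SE, adjusted p = 0.00295). Psat1, the transaminase of the second step, stood at 211, 230 and 140 CPM against 89.7, 46.6 and 48.4 CPM (1.66 ± 0.30, adjusted p = 0.00275). Neither gene's groups overlapped. Psph, the phosphatase that releases serine, did not pass the test, with 27.3, 36.0 and 32.7 CPM in culture and 42.8, 36.2 and 41.3 CPM in sorted cells, every culture below every sorted library (-0.32 ± 0.16, adjusted p = 0.119). Psph overlaps Cct6a in the annotation and the strand setting of the counting is not given, so its level is uncertain.

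The mitochondrial one-carbon enzymes rose too. Shmt2, which splits serine into glycine and a one-carbon unit, stood at 265, 348 and 201 CPM in WT cultures and 115, 76.2 and 63.4 CPM in the sorted populations (1.68 ± 0.28, adjusted p = 0.00153). Per length it was the most abundant of the 33 in WT culture, at a mean of 118 RPKM, the CPM per kilobase of gene length. Mthfd2, the next enzyme of the folate cycle in mitochondria and one that resting tissues hardly use, stood at 92.5, 108 and 55.8 CPM against 24.5, 5.55 and 11.5 CPM (2.63 ± 0.51, adjusted p = 0.00526). As a role, 5 of the 6 synthesis genes rose, with a median log2 difference of 1.70.

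Of the transporters and Tfrc, 6 of the 9 tested rose and the median log2 difference was 1.14. Slc7a5, the catalytic light chain (LAT1) that imports leucine and other large neutral amino acids, stood at 262, 284 and 90.3 CPM in WT cultures against 43.0, 19.1 and 18.3 CPM in sorted cells (2.99 ± 0.57, adjusted p = 0.00517). Slc3a2, the heavy chain (CD98) that carries it to the membrane, did not follow: it stood at 186, 232 and 126 CPM in culture and 163, 199 and 236 CPM sorted (-0.13 ± 0.23, adjusted p = 0.658). The light chain thus separated the groups completely while the heavy chain's groups overlapped. Per length, Slc3a2 was among the most abundant of the 33 in sorted cells, at a mean of 67.3 RPKM, second to Atf4 at 69.7 RPKM.

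The neutral amino acid exchangers of the SLC1 family were both higher in culture. Slc1a5 (ASCT2), the main glutamine carrier of many dividing cells, stood at 324, 312 and 243 CPM in WT cultures and 108, 85.6 and 73.7 CPM in sorted cells (1.72 ± 0.18, adjusted p = 0.000139). Slc1a4 (ASCT1), which prefers alanine, serine and cysteine, had 92, 117 and 28 counts in the cultures and 1, 1 and 2 in sorted cells. Sorted cells were near 0 here as for Asns, and the pooled ratio was 48.3 (counting interval 18.6 to 179), with an adjusted p of 0.000698. Slc7a6, which exchanges cationic for neutral amino acids, was at 58.1 to 63.3 CPM in culture and 23.8 to 32.6 CPM sorted (1.14 ± 0.16, adjusted p = 0.000462).

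The arginine and lysine carrier Slc7a1 passed the threshold narrowly, at 208, 209.5 and 118 CPM against 134, 88.1 and 59.6 CPM (0.93 ± 0.34, adjusted p = 0.0489). The third culture lay below the Immature library, and the call was lost without WT replicate 1, WT replicate 2, M1 or M2 and without the expression filter (adjusted p 0.108 to 0.131). Slc38a1 and Slc38a2, the sodium-coupled glutamine and alanine carriers, did not pass, at 275 to 306 CPM against 173 to 315 CPM (0.27 ± 0.20, adjusted p = 0.283) and 260.5 to 366 CPM against 265 to 270.1 CPM (0.30, adjusted p = 0.123). Slc38a1 passed in the fit of all 9 libraries and without Immature (adjusted p down to 0.0368), and Slc38a2 with library sizes alone and without WT replicate 3 (down to 0.02). The cystine carrier Slc7a11 had at most 1.25 CPM in any WT culture and at most 1.00 CPM in any sorted library, too little to compare.

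Tfrc, the transferrin receptor that brings iron into dividing cells, had the greatest fold difference among members with counts well above 0 in both groups. It stood at 515, 394 and 221 CPM in WT cultures and 21.6, 15.4 and 12.5 CPM in Immature, M1 and M2. Every culture was above every sorted library by a wide margin, and the fitted difference was 22.9-fold (log2 4.52 ± 0.38, adjusted p = 0.000126).

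**Figure D2:**
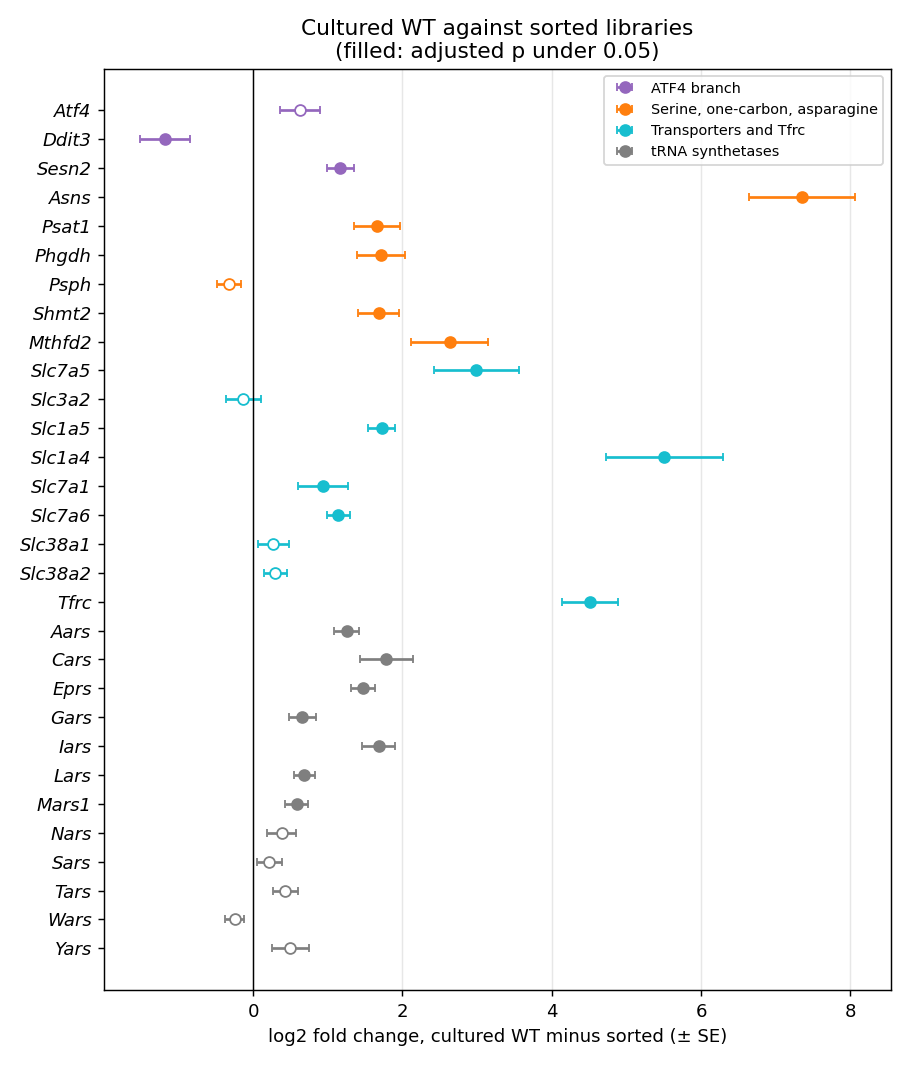
Log2 difference between cultured WT and sorted libraries for the 30 genes tested, with standard errors, grouped by role; filled points have an adjusted p under 0.05. Of the filled points 19 lie to the side of culture, Asns, Slc1a4 and Tfrc farthest, and Ddit3 alone lies to the side of sorted cells.

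The tRNA synthetases moved less and unevenly. Of the 12, 7 rose (Aars, Cars, Eprs, Gars, Iars, Lars and Mars1) with a median log2 difference over the 12 of 0.62. Cars, which charges cysteine tRNA, stood at 80.0, 88.4 and 35.2 CPM in culture and 23.2, 19.8 and 16.3 CPM sorted (1.79 ± 0.35, adjusted p = 0.00385). Iars, for isoleucine, stood at 240.4, 258 and 147 CPM against 78.2, 64.9 and 59.1 CPM (1.68 ± 0.22, adjusted p = 0.000465). Eprs, the joint enzyme for glutamate and proline, stood at 332, 314 and 289 CPM against 122, 129 and 87.4 CPM (1.47 ± 0.16, adjusted p = 0.000188). The groups of all 3 were fully separate.

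Aars, for alanine, was at 158 to 238.5 CPM in culture and 76.4 to 88.1 CPM sorted (1.25 ± 0.17, adjusted p = 0.000389). Lars, Gars and Mars1, for leucine, glycine and methionine, differed by 0.69, 0.66 and 0.58 on the log2 scale (adjusted p = 0.00364, 0.0141 and 0.0109), and the call of Gars was lost without WT replicate 1 or M1 (0.58, adjusted p = 0.0518, and 0.62, adjusted p = 0.0524). The other 5 did not pass: Nars at 0.39, Sars at 0.22, Tars at 0.43, Wars at -0.25 and Yars at 0.50, with adjusted p from 0.0523 to 0.297. Tars passed in 6 of 12 alternatives (adjusted p down to 0.015), Nars and Yars with library sizes alone and without WT replicate 3 (down to 0.00624 and 0.00236), and Sars without WT replicate 3 (0.0388). Wars, for tryptophan and known as an interferon-responsive gene, was the only synthetase of the 12 with a lower mean in culture, 105.5 ± 9.58 CPM (SD, n = 3) against 126 CPM. The sorted mean covers 3 different populations with 1 library each, at 116, 128 and 133 CPM in Immature, M1 and M2. Aars overlaps Ddx19b, Wars overlaps Wdr25, and Mars1 overlaps Ddit3, so reads of these could be split where strand was not used.

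The ATF4 branch itself was mixed. Atf4 stood at 201, 242 and 113 CPM in WT cultures and 104, 132 and 125 CPM in sorted cells, the third culture within the sorted range, and did not pass (0.63 ± 0.26, adjusted p = 0.0734). It passed under library sizes alone, with DESeq2 and without WT replicate 3, where the adjusted p fell as low as 0.00273. Sesn2, an inhibitor of mTORC1 that senses leucine, rose, at 28.7, 30.6 and 36.8 CPM against 13.0, 15.9 and 14.0 CPM (1.17 ± 0.18, adjusted p = 0.000736).

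Ddit3 (CHOP), the pro-apoptotic factor downstream of ATF4, was the 1 gene that fell in culture. It stood at 6.67, 14.98 and 13.9 CPM in WT cultures and 18.1, 29.4 and 33.3 CPM in sorted cells, with no overlap between the groups (-1.18 ± 0.34, adjusted p = 0.0173). The call was lost without M1 (-1.12, adjusted p = 0.0538), and Ddit3 overlaps Mbd6 and Mars1 in the annotation. Trib3, a pseudokinase induced by ATF4 and CHOP, had 75, 116 and 3 counts in the WT cultures and 2, 0 and 3 in sorted cells, a pooled ratio of 31.6 (counting interval 13.3 to 98.5). Chac1, which breaks down glutathione, had 20, 39 and 2 counts against 0, 0 and 1. For both genes the third culture lay within 1 count of a sorted library, and the first and the second stood apart.

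By promoter motif, 5 of the 7 tested genes with TGATGNAA rose (median log2 difference 1.25), as did 10 of the 16 without it (median 1.04, with Ddit3 lower) and 4 of the 7 without a sequence in the table (median 0.69). Asns and Slc1a4 are among the 7, and with 1 to 3 counts in each sorted library they passed the filter only through the cultures. A role of the motif in these differences was not tested.

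Other genes of the pathway were taken from lists fixed by name. Of 13 genes of the integrated stress response kinases and eIF2 machinery, 6 rose and 1 fell in culture (median 0.48). Eif2ak3 (PERK), the kinase of endoplasmic reticulum stress, stood at 143, 164 and 133 CPM in WT cultures against 29.0, 37.9 and 36.3 CPM (2.10 ± 0.15, adjusted p = 3.36e-05). Eif2ak4 (GCN2) rose by 1.72 (adjusted p = 0.000227), Eif2ak2 (PKR) by 1.54 (adjusted p = 0.00126) and Eif2s2, a subunit of eIF2, by 1.56 (adjusted p = 0.000303), while the heme-regulated Eif2ak1 fell by 0.79 on the log2 scale (adjusted p = 0.00132).

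Of 17 tested further ATF4 targets and partners, 5 rose and 6 fell (median 0.19), near the 27.4% and 29.4% of all genes. Atf3 stood at 1.87, 1.46 and 2.70 CPM in culture against 10.7, 33.5 and 29.3 CPM sorted (-3.58, adjusted p = 0.000585), and Cebpb, a C/EBP partner of ATF4, at 0.833, 3.12 and 2.70 CPM against 32.1, 27.3 and 22.05 CPM (-3.58, adjusted p = 0.000134). Ppp1r15a (GADD34), which reverses eIF2 phosphorylation, stood at 32.1, 41.4 and 13.7 CPM against 203, 365.5 and 165 CPM (-3.07, adjusted p = 0.0022). These 3 were lower in culture, as were Cebpg, Ern1, Jdp2 and the member Ddit3. The 5 that rose were Ddit4, Eif4ebp1, Gpt2, Pck2 and Stc2, by 0.72 to 2.81 on the log2 scale. A further list held 11 other genes of cytoplasmic synthetases and of proteins in their complex (Aimp1, Aimp2 and Eef1e1). Of these, 5 rose (Aimp2, Farsa, Farsb, Kars and Rars) and 0 fell, with a median of 0.45. Of the 10 other amino acid transporters tested, 2 rose (Slc16a10 and Slc6a6) and 4 fell (Slc15a4, Slc38a7, Slc43a2 and Slc7a8), with a median of -0.39.

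Other markers moved between cultured and sorted libraries as well. The 7 genes of dividing cells summed to 2995 to 3359 CPM in WT cultures and 895, 448 and 512 CPM in Immature, M1 and M2, with all 7 detected everywhere and 6 called higher in culture. The 8 myeloid markers summed to 360.4 to 591 CPM in culture, nearly all from Itgax, with Lyz2, Adgre1, S100a8, S100a9 and Mpo at 0, and to 1157, 1349 and 1786 CPM in sorted cells with all 8 detected. The 6 B cell markers summed to 0.624 to 1.04 CPM with Ms4a1 and Pax5 at 0 in culture, and to 59.6, 36.9 and 96.2 CPM in sorted cells. Summed T cell markers were 57.4 to 220 CPM against 573, 95.8 and 165 CPM. Erythroid markers were 0 to 1.04 CPM against 8.66, 7.72 and 28.8 CPM. The part of dividing or other cells in the differences above was not tested.

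Within the WT cultures the third library stood apart for these genes. It was the lowest of the 3 for 25 of the 31 genes that passed the filter in the genotype comparison, and for 11 of the 12 synthetases, against 36.2% of all genes. The median log2 ratio of the third library to the mean of the first and the second, with 0.5 CPM added to both, was -0.61 for the 31 genes and -0.00 for all genes. In the Id2-null cultures the third library was lowest for 12 of the 31 and 4 of the 12 synthetases, against 40.9% of all genes, with medians of -0.11 and -0.01. This is a pattern of single libraries, so no test of it was made.

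The lowest ratios in the third WT culture belonged to Trib3, Chac1 and Slc1a4, which sorted cells nearly lacked, and then to Slc7a5 and Asns. As a percentage of the mean of the other two, Trib3 was at 2.91%, Chac1 at 6.27%, Slc1a4 at 24.8%, Slc7a5 at 33.1%, Asns at 33.4% and Cars at 41.8%. Atf4 was at 50.9% and Tfrc at 48.6%. In the third Id2-null culture, Tfrc (48.0%) and Atf4 (56.3%) were about as low, Trib3 stood at 12.8%, Slc1a4 at 61.4%, Slc7a5 at 64.9% and Cars at 72.5%, whereas Asns stood at 128% of the mean of its other two. Sesn2 went the other way in both, at 124% and 186%.

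**Figure D3:**
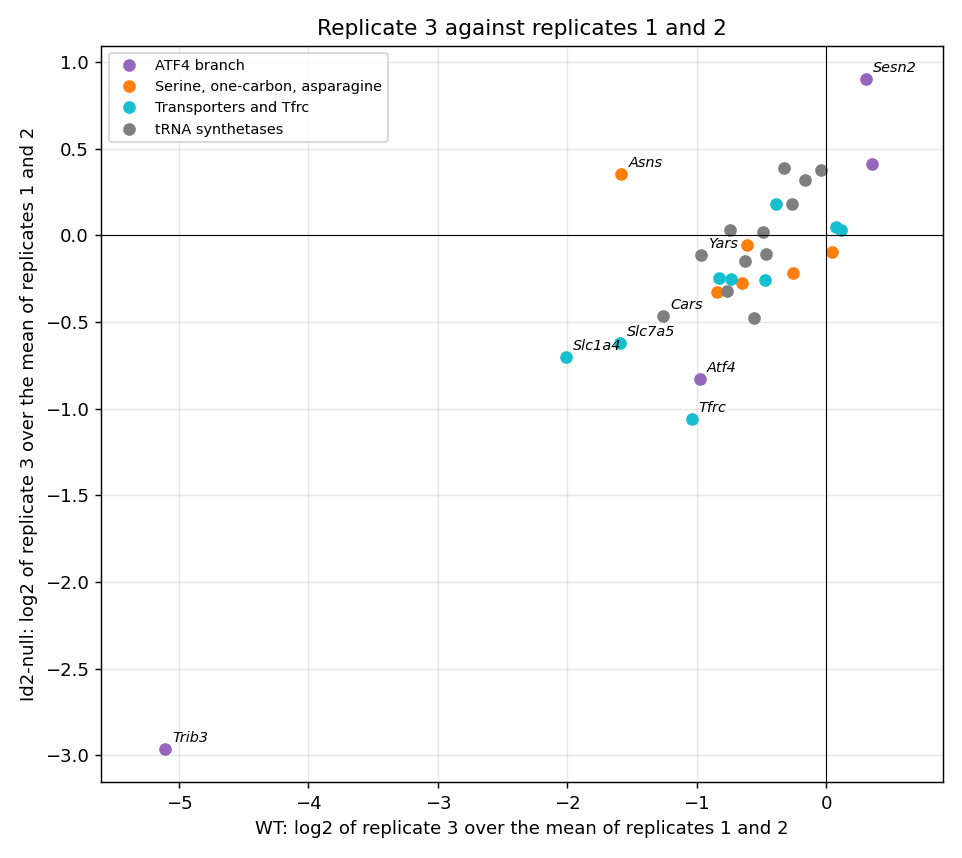
Level of each gene in the third library as a log2 ratio to the mean of the first and the second, for WT cultures on the horizontal and Id2-null cultures on the vertical axis; each point is 1 gene. Most points lie left of 0 for WT, with a median of -0.61, and scatter around a median of -0.11 for Id2-null, and Trib3 is far below 0 on both axes.

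Between Id2-null and WT cultures none of these genes was called. In this comparison 31 of the 33 passed the filter, and 0 were called by edgeR's quasi-likelihood test at an adjusted p under 0.05, against 3.42% of all 11022 genes (1.91% higher, 1.52% lower). At an unadjusted p under 0.05 there was 1, Slc1a4, and DESeq2 and limma voom each called 0. The median log2 difference of the 31 was -0.14, with 11 above 0, and 0.01 over all genes. Genotype and culture comparisons share the 3 WT cultures, so their differences for a gene are not independent.

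Replicate numbers paired the cultures across genotypes by the check described under processing, and a fit blocked on that number called 2 of the 31, Tfrc higher and Slc1a4 lower. The block called 7.58% of all genes (4.1% higher, 3.47% lower), so 2 of 31, or 6.45%, is near that background.

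Tfrc stood at 815, 769 and 380 CPM in Id2-null cultures and 515, 394 and 221 CPM in WT cultures. The third library of each genotype was the lowest and the groups overlapped, yet each Id2-null library was above the WT library of its number, by 0.66, 0.96 and 0.78 on the log2 scale. The difference was 0.80 ± 0.40 SE (adjusted p = 0.451) without the block and 0.81 ± 0.11 (adjusted p = 0.00316) with it. Per length, Tfrc was the most abundant of the 33 in Id2-null cultures at a mean of 133 RPKM, against 76.7 RPKM in WT. Tfrc lies at chr16:32608896-32632794 in GRCm38.p6.

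Slc1a4 stood at 5.28, 8.67 and 4.28 CPM in Id2-null and 19.2, 24.3 and 5.39 CPM in WT cultures, from 21 to 41 and 28 to 117 counts. The third WT culture fell within the Id2-null range, and the log2 differences by replicate number were -1.86, -1.49 and -0.33. The fitted difference was -1.41 ± 0.56 (adjusted p = 0.315) without the block and -1.30 ± 0.30 (adjusted p = 0.0385) with it. Without WT replicate 3 it was -1.83 (adjusted p = 0.0332).

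**Figure D4:**
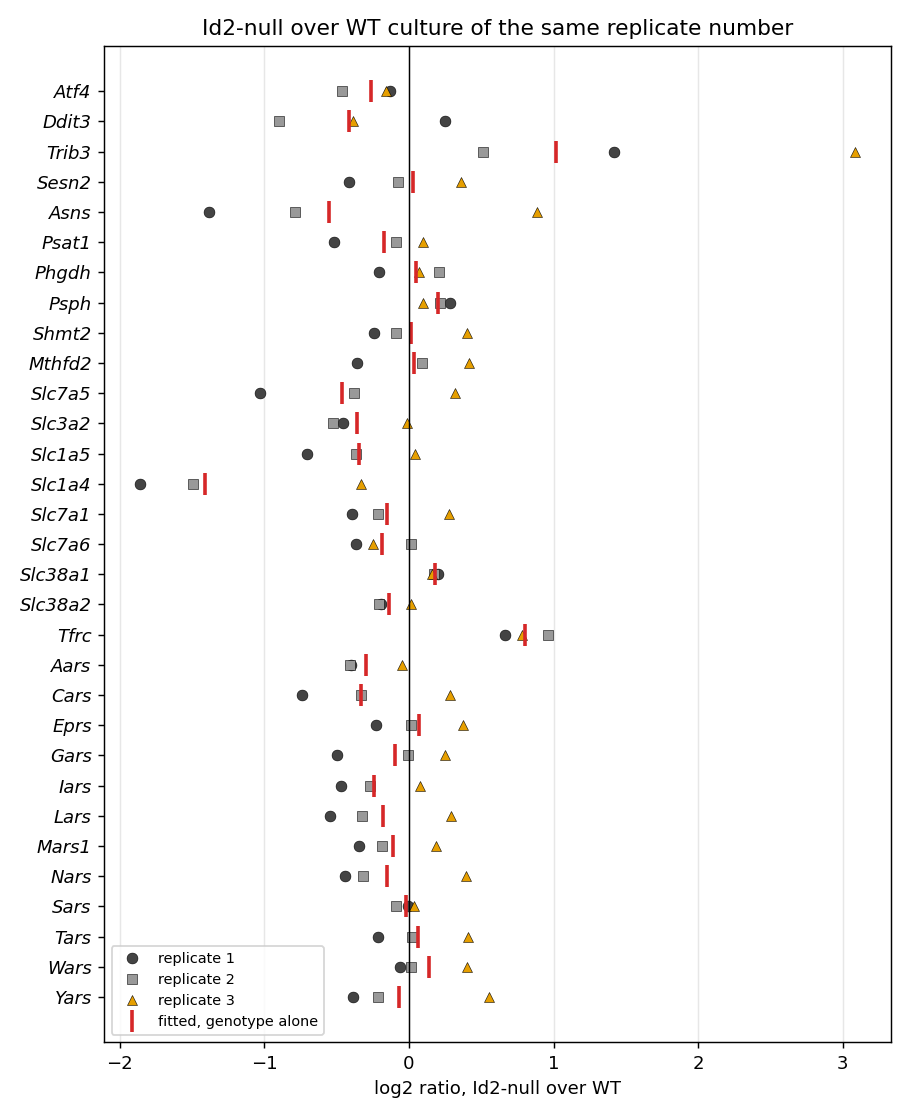
Log2 ratio of Id2-null over WT for each gene in each of the 3 replicate numbers, with the fitted log2 difference, grouped by role. The 3 ratios of Tfrc lie together above 0, those of Slc1a4 all lie below 0, and those of Asns and Trib3 spread widely between replicate numbers.

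Asns and Trib3 show how the third libraries entered this comparison. Asns stood at 35.0, 54.1 and 56.9 CPM in Id2-null and 91.0, 93.4 and 30.8 CPM in WT cultures, so that it was lower in Id2-null by 1.38 and 0.79 on the log2 scale in the first and the second pair, and higher by 0.89 in the third (fitted -0.55 ± 0.45, adjusted p = 0.668). Trib3 stood at 41.8, 34.5 and 4.9 CPM in Id2-null and 15.6, 24.1 and 0.578 CPM in WT, higher in each pair by 1.42, 0.51 and 3.08, the last from 24 and 3 counts (fitted 1.02 ± 1.19, adjusted p = 0.789; 1.19 ± 0.35, adjusted p = 0.128, with the block). Chac1, which did not pass the filter, had 3, 6 and 0 counts in Id2-null and 20, 39 and 2 in WT. Trib3 and Chac1, both known ATF4 targets, thus pointed in opposite directions.

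With replicate 3 of both genotypes left out, 7 members were called, namely 6 of the 31 tested with all 6 cultures, and Chac1. Over all genes there were 571 higher and 494 lower calls, where the fit of all 6 cultures tested 11022 genes. Tfrc (adjusted p = 0.000173) and Trib3 (adjusted p = 0.00234) were higher in Id2-null. Asns (-1.04, adjusted p = 0.00016), Slc1a4 (-1.63, adjusted p = 6.6e-05), Slc1a5 (-0.53, adjusted p = 0.0129), Slc3a2 (-0.49, adjusted p = 0.0305) and Chac1 (-2.63, adjusted p = 0.000587) were lower. That leaves 2 libraries per genotype, and the same step raised the calls over all genes from 210 higher and 167 lower. The WT library left out was the lowest of its group for 25 of the 31 members, so these calls are not independent of that pattern.

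Of the other members that are named here, none passed with all 6 cultures in the fit. Atf4 stood at 183, 176 and 101 CPM in Id2-null and 201, 242 and 113 CPM in WT (-0.26 ± 0.34, adjusted p = 0.802). Slc7a5 stood at 128, 219 and 113 CPM against 262, 284 and 90.3 CPM (-0.46 ± 0.50, adjusted p = 0.765), and Slc1a5 at 198, 242 and 249.5 CPM against 324, 312 and 243 CPM (-0.34 ± 0.15, adjusted p = 0.343). Groups overlapped in each of these 3 genes.

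Slc38a1 was the 1 member whose groups did not overlap in this comparison, at 316, 344 and 341 CPM in Id2-null and 275, 304 and 306 CPM in WT, against 9.92% of all genes that separated upward. Its pairs differed by 0.20, 0.18 and 0.16, and the fitted difference of 0.18 ± 0.11 did not pass (adjusted p = 0.529, and 0.33 with the block). The synthesis enzymes had a median log2 difference of 0.03, with Phgdh at 0.05, Shmt2 at 0.01 and Mthfd2 at 0.04. The synthetases had a median of -0.10, from -0.33 for Cars to 0.14 for Wars.

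Outside the members, 2 genes of the same fixed lists were called without the block. Slc43a2 (LAT4), a carrier of branched-chain amino acids and phenylalanine, rose in Id2-null cells, at 122, 90.7 and 80.4 CPM against 29.4, 24.97 and 27.1 CPM in WT (1.85 ± 0.18, adjusted p = 0.00116). The metal carrier Slc39a14 (ZIP14), which transports zinc and iron, fell, at 47.1, 51.2 and 53.9 CPM against 115, 121 and 94.3 CPM (-1.11 ± 0.13, adjusted p = 0.00333). They were 1 of 10 other amino acid transporters and 1 of 7 iron genes tested, and neither gene's groups overlapped.

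The remaining lists of amino acid, stress and translation genes gave no call by edgeR without the block, with 0 to 4 genes of a list at an unadjusted p under 0.05. All 11 other genes of cytoplasmic synthetases and their complex had a log2 difference above 0 (median 0.23). Of these, 3 had an unadjusted p under 0.05 and 0 were called by edgeR, DESeq2 or limma voom. Of the 15 other ATF4 targets tested 4 had an unadjusted p under 0.05, DESeq2 called 2 and limma voom 0. With the block Jdp2 was higher, and Ern1 and Pck2 were lower. In other lists the block also called Aars2 higher, and Ftl1 and Sdf2l1 lower. Pck2, the mitochondrial PEPCK that ATF4 raises, stood at 20.5, 30.02 and 15.5 CPM in Id2-null and 60.0, 62.6 and 31.4 CPM in WT, with no overlap (-1.21, adjusted p = 0.123, and -1.20, adjusted p = 0.00257, with the block). Eif2ak3 stood at 103, 107 and 102 CPM in Id2-null and 143, 164 and 133 CPM in WT (-0.49, adjusted p = 0.0645, and 0.0206 with the block).

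Beside these values, the summed markers of dividing cells were 1888 to 2964 CPM in Id2-null and 2995 to 3359 CPM in WT cultures, with all 7 detected and 0 called by edgeR, DESeq2 or limma voom (0 at an unadjusted p under 0.05). Summed T cell markers were 183 to 331 CPM against 57.4 to 220 CPM. With the block Cd3d was called higher and Cd3e lower (adjusted p = 0.00142 and 0.0159, edgeR). Of the plasma cell markers, Prdm1 stood at 7.34 to 44.9 CPM against 32.5 to 107 CPM. By edgeR it was not called without the block (adjusted p = 0.506) but was lower with it (-1.57, adjusted p = 0.00175). Jchain rose, at 4.44 to 12.04 CPM against 0 to 0.208 CPM (adjusted p = 0.00335). The only stromal or endothelial marker tested, Pecam1, fell, at 38.1 to 60.1 CPM against 137 to 166 CPM (adjusted p = 0.00202). Their part in the genotype values was not tested.

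The 3 sorted populations have 1 library each, so their differences have no replicate check and the intervals given cover counting error only. Of the 33 genes 28 had 10 or more counts in at least 1 sorted library, as did 11362 genes in all. In M2 against Immature cells 17 of the 28 had a counting interval below 0 and 4 had one above, where 20.7% and 26.8% of the 11362 genes did. For M1 against Immature the counts were 12 below and 3 above (16.8% and 18.2% of all genes), and for M2 against M1 5 below and 3 above (14.2% and 20.6%). By the 2-fold rule 3 of the 28 were lower in M1 than in Immature (Phgdh, Mthfd2 and Slc7a5) and 0 higher, against 5.76% and 3.22% of all genes. In M2 against Immature 4 were lower (these 3 and Slc7a1) and 0 higher, against 6.79% and 7.97%, and in M2 against M1 Mthfd2 alone was higher and 0 were lower, against 6.21% and 2.62%. Asns and Slc1a4 had 1 to 3 counts in each sorted library, too few to place.

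**Figure D5:**
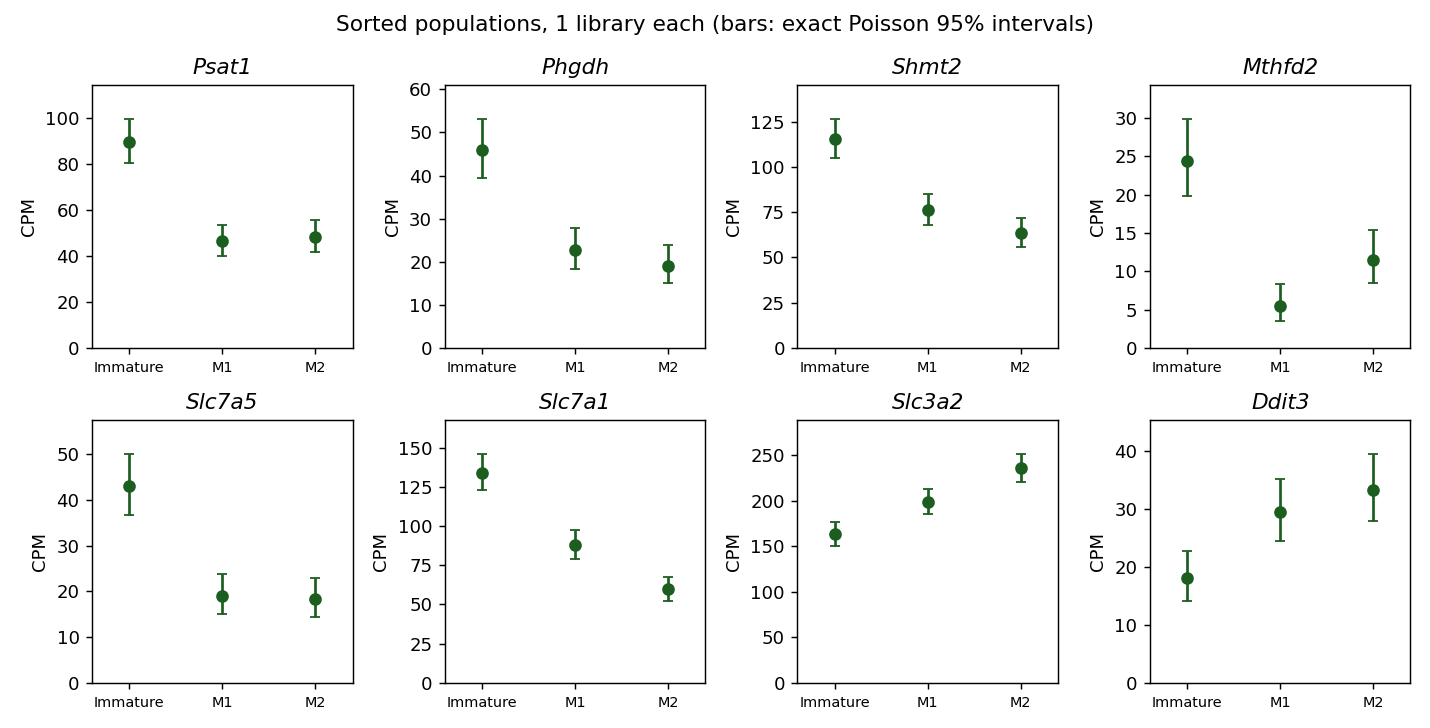
Level in Immature, M1 and M2 cells, as CPM with exact Poisson 95% intervals, of Psat1, Phgdh, Shmt2, Mthfd2, Slc7a5, Slc7a1, Slc3a2 and Ddit3; each point is 1 library. The first 6 are highest in Immature cells, and Slc3a2 and Ddit3 are lowest there.

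Of the serine and one-carbon enzymes, Phgdh, Psat1, Shmt2 and Mthfd2 were lower in M1 than in Immature cells beyond counting error. Phgdh went from 45.8 to 22.7 CPM, a log2 ratio of -1.02 (counting interval -1.39 to -0.65), and was at 19.0 CPM in M2. Psat1 went from 89.7 to 46.6 CPM (-0.95, interval -1.21 to -0.69) and was at 48.4 CPM in M2. Mthfd2 went from 24.5 to 5.55 CPM (-2.14, interval -2.86 to -1.47) and back to 11.5 CPM in M2 (M2 over M1 1.05, interval 0.30 to 1.84). Shmt2 was lower at each step, at 115, 76.2 and 63.4 CPM. Psph was not, at 42.8, 36.2 and 41.3 CPM (M1 over Immature interval -0.57 to 0.08).

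Transporters divided into those higher and those lower in Immature cells. Slc7a5 stood at 43.0, 19.1 and 18.3 CPM (M1 over Immature -1.18, interval -1.58 to -0.78). Slc7a1 stood at 134, 88.1 and 59.6 CPM (M2 over Immature -1.17, interval -1.39 to -0.94) and Slc38a1 at 315, 248.5 and 173 CPM (-0.87, interval -1.003 to -0.73), both lower at each step. Slc3a2 ran opposite to its partner Slc7a5, at 163, 199 and 236 CPM (0.53, interval 0.39 to 0.68). Slc38a2 was level, at 265, 269 and 270.1 CPM.

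Ddit3 and Atf4 were lowest in Immature cells. Ddit3 stood at 18.1, 29.4 and 33.3 CPM (M2 over Immature 0.88, interval 0.46 to 1.32) and Atf4 at 104, 132 and 125 CPM (M1 over Immature 0.34, interval 0.15 to 0.52). They were 2 of the 4 genes with an interval above 0 between Immature and M2, the others being Slc3a2 and Wars. The median log2 ratio of M2 over Immature was -0.37 for the 30 members that passed the filter of the culture comparison, Asns and Slc1a4 among them, against 0.03 over all genes. Dividing-cell markers followed the same order at the first step, 895 CPM in Immature, 448 in M1 and 512 in M2, and T cell markers stood at 573, 95.8 and 165 CPM. Summed myeloid markers stood at 1157, 1349 and 1786 CPM, with Lyz2 at 56.8, 60.1 and 231 CPM. B cell markers stood at 59.6, 36.9 and 96.2 CPM. The part of all these cells in the ratios was not tested.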

How the data were processed

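RNA sequencing of 9 mouse NK cell libraries was analysed. The authors deposited raw counts for each Entrez gene beside the gene's length, per the file headers. Alignment with Subread and counting with featureCounts on GRCm38 (mm10), with limma as a further tool, are named per the submitters' processing notes. Versions, annotation, strand setting and read filters: not given in the sources used here. Gene symbols with their coordinates were taken from RefSeq on GRCm38.p6 (25275 of 27179 identifiers matched, all 33 genes among them).

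Counts were tested in R 4.3.3 with edgeR 4.0.16: filterByExpr at a minimum count of 10, TMM scaling, a robust quasi-likelihood fit on the libraries compared, and Benjamini-Hochberg adjustment over all genes tested, called under 0.05. The biological coefficient of variation was 0.209 for genotype and 0.197 for culture. CPM used TMM factors over all 9 libraries, and RPKM divided these by the deposited length. Sorted populations were treated as 3 libraries of 1 class in the culture comparison and otherwise described with exact Poisson 95% intervals on each count and exact binomial intervals on ratios, which cover counting error only, as does the limit of 3 counts that a 0 allows.

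Labels number replicates 1 to 3 in both genotypes. Deviations from the group means correlated at 0.359, 0.245 and 0.422 between same-numbered libraries, all over 0.1, so the numbers were taken as pairs. Id2-null 1 with WT 2 (0.191) and Id2-null 2 with WT 1 (0.128) also passed 0.1. Libraries numbered 3 correlated at -0.404 to -0.265 with those numbered 1 or 2 of the other genotype. The check thus sets replicate 3 apart, but cannot show that 1 belongs with 1 and 2 with 2. The blocked fit is given where it changes a call. No fit with a block could be made for the culture comparison. DESeq2 1.42.0, limma voom (3.58.1), other scalings, no filter, all 9 libraries in 1 fit and leaving out libraries were the alternatives. The script was tested on simulated counts with 100 changed genes. For genotype it recovered 51% of 2-fold and 100% of 4-fold changes among 11059 genes, with 1 false call at each fold. For culture it recovered 68% and 100% among 11199, with 13 false calls at each fold. The genes named are all 33 members and, from each further list, up to 4 called genes by adjusted p or else the 2 highest expressed; Eif2ak1, Pck2, Eif2ak3 in the genotype comparison and genes listed only by name were added after their values were seen. The count of members with 10 or more counts in a sorted library was chosen after seeing the data, as were the marker genes named singly. The members and the lists were chosen with earlier results of these data known.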

Additional observations from a re-analysis of the deposited data

How the results depend on the processing

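No member changed direction in a called value under any of the 14 alternatives of the genotype comparison or the 12 of the culture comparison. Fitting Id2-null against WT with the replicate block moved the called members from 0 to 1 higher and 1 lower, and no other member's call. Leaving out replicate 3 of both genotypes gave 2 higher and 5 lower, and leaving out single libraries gave 0 to 0 higher and 0 to 1 lower, the 1 being Slc1a4 without WT replicate 3. DESeq2, limma voom, both other scalings, no filter and the 9-library fit kept the count at 0. Over all genes the 210 higher and 167 lower calls became 316 and 264 with DESeq2, 452 and 383 with the block, 571 and 494 without replicate 3 of both genotypes, and 67 to 387 and 54 to 275 without single libraries, lowest without WT replicate 1 and highest without Id2-null replicate 3. No paired analysis was possible for cultured against sorted cells because the sorted libraries carry no replicate number. There the 19 higher members ranged from 17 to 27 without single libraries, 27 without WT replicate 3, and from 19 to 24 under the other settings. The 1 lower member ranged from 0 to 1, lost without M1. Scaling by library sizes alone shifted the median of all genes by 0.17 and the share of higher genes among those called from 48.2% to 58.9%, and the members' median from 1.04 to 1.20. The cause of these shifts was not tested. Depth limits Trib3, Chac1, Slc7a11 and Slc1a4, and Asns in sorted cells, which rest on few counts. With the filter of the culture comparison in place of 10 counts in a sorted library, the 2-fold rule gave 4, 5 and 0 lower and 0, 0 and 2 higher members for M1 over Immature, M2 over Immature and M2 over M1, the added ones being Asns and Slc1a4.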

Other observations

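Further fixed lists of neighbouring pathways moved in both directions between cultured WT and sorted cells, where 27.4% of all genes were higher and 29.4% lower. Several of the counts below are near those shares. Of 11 cytoplasmic and other one-carbon genes tested outside the members, 6 rose and 1 fell, among them Shmt1, the cytoplasmic twin of Shmt2 (2.05 ± 0.49 SE, adjusted p = 0.00942). Slc25a32, the mitochondrial folate carrier, fell by 0.89 on the log2 scale (adjusted p = 0.00356). Of 9 genes of glutamine and aspartate metabolism 5 rose and 3 fell. Odc1, the first enzyme of polyamine synthesis, rose by 1.83 (adjusted p = 0.000239) and Got2 by 1.03 (adjusted p = 0.000462). Glul, which makes glutamine, fell by 2.13 (adjusted p = 7.59e-05).

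Among 21 genes that carry amino acid signals to mTORC1, 4 rose and 7 fell. Mtor rose by 0.91 (adjusted p = 0.00166) and its substrate Rps6kb1 by 0.89 (adjusted p = 0.000394), while the arginine sensor Castor1 fell by 2.54 (adjusted p = 0.000229) and Sesn3, a relative of the member Sesn2, fell by 0.95 (adjusted p = 0.000841). Of 16 chaperones and regulators of the endoplasmic reticulum stress response 4 rose and 3 fell: Hsp90b1 rose by 0.77 (adjusted p = 0.00153) and Xbp1 by 0.82 (adjusted p = 0.00423), and Dnajb9 fell by 1.95 (adjusted p = 0.000346). In Id2-null against WT cultures 1 of these 16 had a log2 difference above 0 (median -0.20), with 3 at an unadjusted p under 0.05. Without the block edgeR called 0, as did DESeq2 and limma voom, and with the block edgeR called Sdf2l1 lower. Of 17 mitochondrial tRNA synthetases 5 rose and 2 fell in culture. Lars2, for leucine, fell by 3.16 on the log2 scale (adjusted p = 5.33e-05), from a mean of 2109 CPM in sorted cells to 235 CPM in culture, and Tars2 rose by 1.24 (adjusted p = 0.000679). The iron exporter Slc40a1 had 0 counts in all 6 cultures and stood at 59.6, 53.1 and 262 CPM in Immature, M1 and M2, with the macrophage marker Lyz2 at 56.8, 60.1 and 231 CPM in the same libraries and at 0 in WT cultures. The part of macrophages in the Slc40a1 values was not tested.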
